A study of Mus musculus with 6 samples.

Results

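The mitochondrial genome of the mouse carries 37 genes, and all 37 genes whose GENCODE symbol starts with mt- were taken as members, of 54115 genes in the files. They are 13 genes of proteins, 2 of ribosomal RNAs (rRNAs) and 22 of transfer RNAs (tRNAs). RNA-sequencing libraries were made from satellite cells (the resident stem cells of skeletal muscle) that were sorted straight from uninjured hindlimb muscle of C57BL/6J mice as α7-INTEGRIN+ CD34+ CD31- CD11b- SCA-1- CD45- cells. Of 6 libraries, 3 were of *Pax7*WT and 3 of *Pax7*KR genotype. *Pax7*KR mice were homozygous for a germline CRISPR-Cas9 edit that replaces an acetylated lysine of the transcription factor PAX7 with arginine. The edit was present in every cell of the *Pax7*KR mice, and the *Pax7*WT mice were wild-type littermates. Mice were 6 to 8 weeks old. Each library was made from 15 ng of RNA and held between 17822367 and 27908054 reads, which were estimated per transcript with salmon. The comparison asks whether RNA of the mitochondrial genome differs between the satellite cells of both genotypes.

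Mitochondrial DNA is a small circle that encodes core subunits of the respiratory chain and of ATP synthase, together with the rRNAs and tRNAs that translate them inside the organelle. Both strands are copied by a single RNA polymerase into long precursors, and the tRNAs that lie between most of the other genes are cut out to release the mRNAs and rRNAs. The nucleus encodes all enzymes of this process and most subunits of the same complexes. Quiescent satellite cells are known for a low mitochondrial content that grows when the cells are activated. In the annotation of GRCm38, 28 of the 37 genes lay on the plus strand of chromosome M and 9 on the minus strand, which were *mt-Nd6* and 8 tRNAs.

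A search for shared 31-base sequences found 10 nuclear pseudogenes that are copies of mitochondrial genes, 7 on chromosome 1 and 3 on chromosome 2. A gene was taken as a copy when at least 25% of its 31-base sequences occur in a mitochondrial transcript. Of these copies, 5 were identical to the mitochondrial gene over their whole length, namely *Gm10222* (*mt-Nd4l*), *Gm28439* (the first 876 bases of *mt-Nd4*), *Gm28661* (*mt-Co2*), *Gm10925* (*mt-Atp6*) and *Gm28437* (*mt-Co3*). The following ends are shown because the few bases past the copy are all that tells the transcripts of each pair apart. Capitals mark the bases of the mitochondrial gene that lie past the end of its copy, at chrM:8548-8607 and chrM:9331-9390 on the plus strand and at chr1:24613974-24614030 and chr1:24613189-24613247 on the minus strand of GRCm38.
mt-Atp6 end: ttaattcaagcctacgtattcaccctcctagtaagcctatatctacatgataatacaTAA
Gm10925 end: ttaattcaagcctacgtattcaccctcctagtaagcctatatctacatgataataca
mt-Co3 end: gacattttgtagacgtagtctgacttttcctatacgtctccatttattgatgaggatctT
Gm28437 end: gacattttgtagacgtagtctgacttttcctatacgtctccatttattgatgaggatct

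*Gm28438*, the copy of *mt-Nd3*, differed at 1 base of 345, T3C, counted from the 5′ end of the gene with the mitochondrial base first. Its start is shown with the differing base in capitals, at chrM:9459-9518 on the plus strand and chr1:24613060-24613119 on the minus strand.
mt-Nd3 start: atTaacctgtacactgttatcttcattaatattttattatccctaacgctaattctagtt
Gm28438 start: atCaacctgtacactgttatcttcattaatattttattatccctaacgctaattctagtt
Reads from such a stretch fit both places, and salmon divides them by estimation. For such stretches the share placed on the copies therefore depends on this division, and it was not the same in each library.

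Of all reads on *mt-Atp6* and *Gm10925*, 80.7% to 88.1% per library were placed on the nuclear copy. For *mt-Co3* and *Gm28437* the share ran from 54.2% to 69.8%, and for *mt-Nd4l* and *Gm10222* from 44.3% to 67.8%. For *mt-Nd3* it was 0.635%, 41.7% and 5.58% in *Pax7*WT 1, 2 and 3 and 41.3%, 27.3% and 16.3% in *Pax7*KR 1, 2 and 3, so the *Pax7*WT libraries alone spanned the whole range. Smaller shares were placed on the copies of *mt-Nd4* (5.63% to 10.1%), *mt-Co2* (*Gm28661* and *Gm13341*, 0.0267% to 3.54%), *mt-Co1* (*Gm29216* and *Gm13340*, 0.272% to 0.525%) and *mt-Nd2* (at most 0.00375%). When the reads of the copies were added to the mitochondrial gene, the SD between libraries of 1 genotype on the log2 scale went from 0.43 to 0.18 for *mt-Nd3*, from 0.25 to 0.13 for *mt-Co3*, from 0.22 to 0.16 for *mt-Nd4l* and from 0.17 to 0.14 for *mt-Atp6*. Values for these 8 genes are given below with the copies added unless stated, and those of the reads as deposited beside them where they differ. In identical stretches, reads that truly came from the nuclear copies cannot be told apart from the others. The copies on chromosome 2 differ at more bases, and their few reads were added as well. They differ at 173 of 672 bases for *Gm13341*, 37 of 1545 for *Gm13340* and 17 of 510 for *Gm13339*, the copy of *mt-Nd2*.

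**Figure D1:**
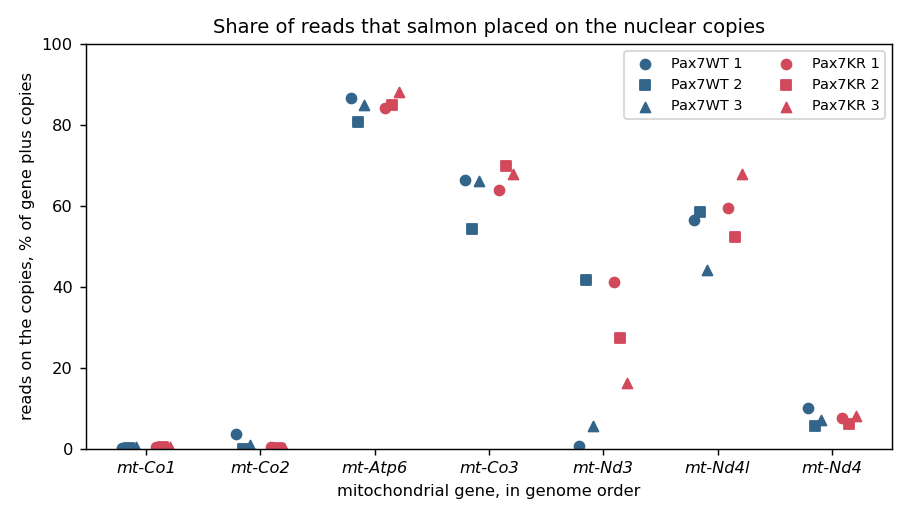
Share of reads that were placed on the nuclear copies, in percent of the reads on each mitochondrial gene and its copies together (vertical axis), for the 7 genes with the largest shares in genome order (horizontal axis). Each point is 1 library, with shape for the replicate. The points lie above 80% for *mt-Atp6*, below 4% for *mt-Co1* and *mt-Co2*, and spread from 0.635% to 41.7% for *mt-Nd3*.

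Levels below are CPM, reads scaled to a common library size. *Pax7* was at 1550.2 ± 101 CPM in *Pax7*WT and 1502 ± 119 CPM in *Pax7*KR (SD, n = 3 each); estimated reads carry no base calls, so the edit itself was not read. The library *Pax7*KR 2 stood apart, with 131 CPM summed over 4 Y-linked genes against 299 to 355 CPM in the other 5 libraries. Results are therefore also given without it. *Xist*, another sex-linked gene, was at 0.88 CPM in *Pax7*KR 2 and at 0.44 to 2.29 CPM in the other 5 libraries. The sum of 12 satellite cell markers was 9458 to 10231 CPM in *Pax7*WT and 9812 to 10162 CPM in *Pax7*KR. Myofibres are cells rich in mitochondria. Sums over 18 of their genes were 132, 144 and 155 CPM in *Pax7*WT 1, 2 and 3 and 139, 122 and 139 CPM in *Pax7*KR 1, 2 and 3. Of the 18 genes, 12 had a negative log2 fold change, with a median of -0.06. *Pax7*KR 2 had the lowest sum and *Pax7*WT 3 the highest, as for the share of mitochondrial reads given below. The part of myofibres in that share was not tested. Over all genes the median log2 fold change was near 0, and the biological coefficient of variation between libraries of 1 genotype was 13.8%.

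The 22 tRNA genes were at 0 reads in all 6 libraries. They are 59 to 75 bases long, and salmon gave them effective lengths of 5 to 8 bases, the number of positions at which a fragment of the library could start. A floor of 3 reads corresponds to 0.107 to 0.168 CPM on the raw library sizes, for counting error only. Libraries of this kind keep few fragments as short as a tRNA, so this 0 is no measure of the tRNAs in the cells. The longest (*mt-Tl1* for leucine, chrM:2676-2750, plus strand) and the shortest (*mt-Ts2* for serine, chrM:11613-11671, plus strand) are shown to give their scale.
mt-Tl1: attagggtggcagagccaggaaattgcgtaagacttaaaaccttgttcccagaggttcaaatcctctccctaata
mt-Ts2: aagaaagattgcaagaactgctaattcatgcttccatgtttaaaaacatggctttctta

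The other 15 genes had reads in every library, between 291 and 486129 as deposited, and all 15 passed the filter of 5 reads in 2 libraries. They took 5.09%, 5.46% and 5.74% of all reads in *Pax7*WT 1, 2 and 3 and 4.55%, 4.21% and 5.12% in *Pax7*KR 1, 2 and 3. The means were 5.43% ± 0.328 in *Pax7*WT and 4.63% ± 0.458 in *Pax7*KR (SD, n = 3 each), and the groups overlapped, since *Pax7*KR 3 lay above *Pax7*WT 1. With the nuclear copies added, the share was 6.12%, 6.39% and 6.82% in *Pax7*WT and 5.44%, 5.04% and 6.18% in *Pax7*KR, a ratio of the means of 0.862. The groups still overlapped at *Pax7*KR 3. Without *Pax7*KR 2 the difference in the share as deposited was -0.60 percentage points, against -0.80 with it. In RNA from many cells, fewer cells of a type rich in mitochondria and less mitochondrial RNA per cell cannot be told apart.

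**Figure D2:**
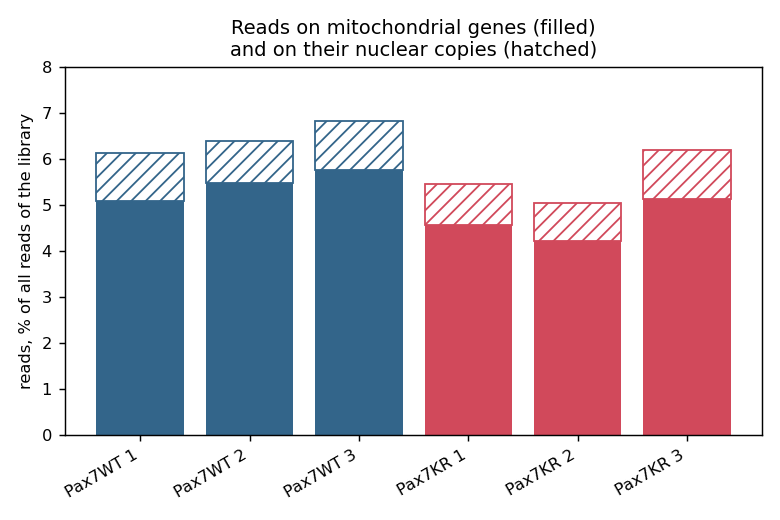
Reads on the mitochondrial genes (filled bars) and on their nuclear copies (hatched bars on top), in percent of all reads of the library (vertical axis), for each of the 6 libraries (horizontal axis; blue *Pax7*WT, red *Pax7*KR). The whole bars reach 6.12% to 6.82% in *Pax7*WT and 5.04% to 6.18% in *Pax7*KR, with *Pax7*KR 2 the lowest and *Pax7*WT 3 the highest.

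The genes were compared in the fit of all 17152 tested genes with edgeR's quasi-likelihood test, where a log2 fold change is *Pax7*KR against *Pax7*WT. This paragraph gives the reads as deposited. All 15 mitochondrial genes had a negative log2 fold change, from -0.58 for *mt-Nd6* to -0.18 for *mt-Atp8*, with a median of -0.35, where 51% of all tested genes had a negative value. Of the 15, 9 had an unadjusted p under 0.05 on the lower side, against 2.43% of all genes. In 7 of the 15 every *Pax7*KR library lay below every *Pax7*WT library, which holds for 5.19% of all genes. After adjustment over all genes, 0 of the 15 were under the cut-off of 0.1 in edgeR, where 0% of all genes were, and the smallest adjusted p of a mitochondrial gene was 0.445. DESeq2, with 0.07% of all genes called on the lower side, called 5 of the 15, namely *mt-Rnr2*, *mt-Nd1*, *mt-Atp6*, *mt-Nd4l* and *mt-Nd6*, so the call depends on the tool. Without the filter on low reads edgeR called 7, with 0.291% of all genes called on the lower side. The adjusted p of every single gene for which none is given below was 0.992 or above in edgeR. The 15 genes are parts of shared precursors in the same libraries and are not independent of each other.

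With the nuclear copies added, the 15 log2 fold changes were again all negative, with a median of -0.24. An unadjusted p under 0.05 was reached by 10 genes (all but *mt-Rnr1*, *mt-Co3*, *mt-Atp8*, *mt-Nd5* and *mt-Cytb*), where 2.43% of all genes reached it on the lower side and 4.7% in either direction, 6 were without overlap between the groups (against 5.19% of all genes), and 0 had an adjusted p under 0.1 in edgeR. DESeq2 called *mt-Rnr2*, *mt-Nd1* and *mt-Nd6* on this table, where 0.0584% of all genes were called on the lower side. Thus *mt-Atp6* and *mt-Nd4l* were called only when the reads of their copies were left aside. The order of the libraries was much the same from gene to gene, with *Pax7*KR 2 the lowest of the 6 libraries in 13 of the 15 genes and *Pax7*WT 3 the highest in 12. The number with an unadjusted p under 0.05 was 4 without *Pax7*KR 1, 4 without *Pax7*KR 2 and 5 without *Pax7*WT 3, where 2.13%, 1.64% and 2.42% of all genes reached it on the lower side, against 11 without *Pax7*WT 1, 11 without *Pax7*WT 2 and 14 without *Pax7*KR 3, where 2.32%, 3.23% and 2.93% did. Without *Pax7*KR 2 all 15 values stayed negative, between -0.55 and -0.10, with a median of -0.20 and a smallest adjusted p of 1.00 in edgeR.

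**Figure D3:**
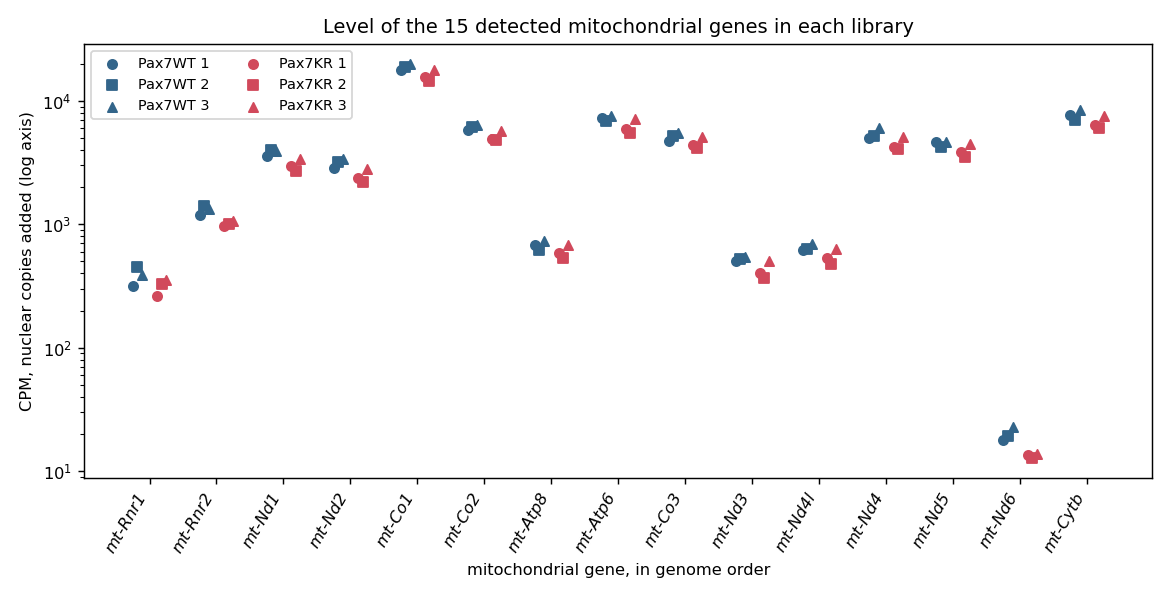
Level of each of the 15 detected mitochondrial genes in CPM with the reads of the nuclear copies added (vertical log axis), in genome order (horizontal axis). Each point is 1 library (blue *Pax7*WT, red *Pax7*KR, shape for the replicate). The red points lie lower than the blue ones as a group, without overlap for *mt-Rnr2*, *mt-Nd1*, *mt-Nd2*, *mt-Co1*, *mt-Co2* and *mt-Nd6* and with overlap for the others.

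Markers of other cell types were read for the same libraries. The sum of 12 endothelial markers, 11 of which had a positive log2 fold change, was 357 to 446 CPM in *Pax7*WT and 390.2 to 516 CPM in *Pax7*KR, and *Pax7*KR 2, lowest for most mitochondrial genes, had the highest sum. Sums of 10 fibro-adipogenic markers did not overlap, at 2424 to 2515 CPM in *Pax7*WT and 2525 to 2598 CPM in *Pax7*KR, although 6 of the 10 had a negative log2 fold change and the median was -0.03. Those of 8 Schwann and glial markers, 5 of them with a negative log2 fold change, did not overlap either, at 328 to 371 CPM and 307 to 317 CPM. For 6 erythroid markers, all with a positive log2 fold change, the sums were 190.5 to 376 CPM in *Pax7*WT and 329 to 557 CPM in *Pax7*KR, with overlap. Sums of 10 immune markers, of which 1 (*Cd3e* of T cells) was at 0 in every library, were 15.3 to 16.8 CPM and 12.9 to 17.0 CPM. All 10 smooth muscle and pericyte markers had a negative log2 fold change, as the mitochondrial genes had, with a median of -0.13, and their sums overlapped at 803 to 965 CPM and 774 to 853 CPM. Genes that respond to tissue dissociation were at 27312 to 44407 CPM in *Pax7*WT and 34051 to 38215 CPM in *Pax7*KR. None of these markers had an adjusted p under 0.1 in edgeR, and the part of other cells or of dissociation in the mitochondrial values was not tested.

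The rRNAs form the core of the mitochondrial ribosome and lie at the start of the plus strand. *mt-Rnr2* (ENSMUSG00000064339, chrM:1094-2675), the rRNA of the large subunit, was at 1180.5, 1411 and 1332 CPM in *Pax7*WT 1, 2 and 3 and at 971, 1009 and 1069.7 CPM in *Pax7*KR 1, 2 and 3. The groups did not overlap, and the log2 fold change was -0.36 (adjusted p = 0.511 in edgeR and 0.00883 in DESeq2; SE 0.08). *mt-Rnr1* (ENSMUSG00000064337, chrM:70-1024), the rRNA of the small subunit, was at 318, 447 and 388 CPM in *Pax7*WT and 261, 330.1 and 355 CPM in *Pax7*KR. Here *Pax7*WT 1 lay below both *Pax7*KR 2 and *Pax7*KR 3, and the log2 fold change of -0.29 (adjusted p = 0.992 in edgeR; SE 0.16) was within the spread. Together the rRNAs took 0.167% ± 0.0194 of reads in *Pax7*WT and 0.134% ± 0.00807 in *Pax7*KR (SD, n = 3 each), without overlap. How rRNA was depleted or mRNA selected is not given in the sources used here, so their level against the mRNAs is that of the library and not of the cell.

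Complex I, the NADH dehydrogenase through which most electrons enter the respiratory chain, has 7 subunits encoded by mitochondrial DNA. *mt-Nd1* (ENSMUSG00000064341, chrM:2751-3707) was at 3554, 4017 and 3909 CPM in *Pax7*WT and 2959.5, 2683 and 3386 CPM in *Pax7*KR, a log2 fold change of -0.35 (adjusted p = 0.959 in edgeR and 0.0645 in DESeq2; SE 0.09). *mt-Nd2* (ENSMUSG00000064345, chrM:3914-4951) was at 2853, 3186 and 3362 CPM in *Pax7*WT and 2362, 2209 and 2828 CPM in *Pax7*KR, also with a log2 fold change of -0.35 (SE 0.10). Both genes follow the rRNAs on the plus strand, and in both the highest *Pax7*KR library, *Pax7*KR 3, lay just under the lowest *Pax7*WT library, *Pax7*WT 1.

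*mt-Nd4* (ENSMUSG00000064363, chrM:10167-11544) was at 5033, 5222 and 5986 CPM in *Pax7*WT and 4196, 4111 and 5068 CPM in *Pax7*KR, with overlap at *Pax7*KR 3 and a log2 fold change of -0.28 (SE 0.10). *mt-Nd4l* (ENSMUSG00000065947, chrM:9877-10173), which shares 7 bases and a transcript with *mt-Nd4*, was at 623, 631 and 687 CPM in *Pax7*WT and 531, 474 and 634 CPM in *Pax7*KR, a log2 fold change of -0.24 (SE 0.10). As deposited, without the copy, it was at 271, 262 and 383 CPM in *Pax7*WT and 215, 227 and 204 CPM in *Pax7*KR, which gave -0.50 (adjusted p = 0.992 in edgeR and 0.0386 in DESeq2; SE 0.15). The groups were apart as deposited and overlapped with the copy added, where *Pax7*KR 3 changed from the lowest library to the second highest.

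*mt-Nd3* (ENSMUSG00000064360, chrM:9459-9806) was at 501, 523 and 548 CPM in *Pax7*WT and 402, 365 and 505 CPM in *Pax7*KR, a log2 fold change of -0.31 (SE 0.11). As deposited it was at 498, 305 and 517 CPM and 236, 265 and 422 CPM, with a log2 fold change of -0.52 and an SE of 0.34. The library that moved most was *Pax7*WT 2, from 305 to 523 CPM. Without *Pax7*KR 3, *mt-Nd3* with its copy added passed the adjusted cut-off in edgeR (log2 fold change -0.45, adjusted p = 0.0733). How many of all genes passed in that same fit, with copies added, was not counted. Leaving out *Pax7*KR 3 also gave the most calls over all genes with the reads as deposited. There 32 genes passed, 0 of them mitochondrial, against 1 to 5 genes with any other library left out.

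*mt-Nd5* (ENSMUSG00000064367, chrM:11742-13565), the longest of the 15 genes, was at 4628, 4269 and 4630.3 CPM in *Pax7*WT and 3852, 3481 and 4477 CPM in *Pax7*KR. The groups overlapped at *Pax7*KR 3 and *Pax7*WT 2, and the log2 fold change was -0.20 (SE 0.10). On the other strand its last 14 bases overlap the end of *mt-Nd6* (ENSMUSG00000064368, chrM:13552-14070), the protein-coding gene of the minus strand. The capitals below mark these bases in both genes, at chrM:13506-13565 on the plus strand and chrM:13552-13611 on the minus strand.
mt-Nd5 end: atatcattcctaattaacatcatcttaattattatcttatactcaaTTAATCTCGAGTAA
mt-Nd6 end: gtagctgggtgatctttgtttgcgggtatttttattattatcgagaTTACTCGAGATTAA

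*mt-Nd6* had the largest difference of the 15 genes and the lowest level. It was at 17.97, 19.4 and 22.9 CPM in *Pax7*WT 1, 2 and 3 (343 to 489 reads) and at 13.6, 12.8 and 13.8 CPM in *Pax7*KR 1, 2 and 3 (291 to 311 reads). All *Pax7*KR libraries lay below all *Pax7*WT libraries, and the log2 fold change was -0.58 (adjusted p = 0.445 in edgeR and 0.05003 in DESeq2; SE 0.12). Leave-one-out fits with the copies added put it between -0.66 and -0.48. For some other genes 1 library moved the value by more than 1.5 times, and their ranges were -0.41 to -0.16 for *mt-Rnr1*, -0.30 to -0.11 for *mt-Nd5*, -0.28 to -0.10 for *mt-Atp8* and -0.36 to -0.15 for *mt-Nd4l*. The value nearest 0 came without *Pax7*WT 2 for *mt-Rnr1* and without *Pax7*KR 2 for the other three. As deposited, ranges were as wide for *mt-Nd3* (-0.81 to -0.36), *mt-Nd4l* (-0.60 to -0.31) and *mt-Co3* (-0.52 to -0.22). Set against the other mitochondrial mRNAs, *mt-Nd6* made up 2.93, 3.10 and 3.38 of 10000 reads in *Pax7*WT and 2.60, 2.61 and 2.26 of 10000 reads in *Pax7*KR, again without overlap. The libraries were made with a kit that keeps the strand, but the strand setting used in salmon is not given in the sources used here, so it cannot be told whether RNA of the other strand adds to these few reads.

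Complex III passes electrons on to cytochrome c and has 1 mitochondrial subunit, cytochrome b. Its gene *mt-Cytb* (ENSMUSG00000064370, chrM:14145-15288) was at 7643, 6982 and 8395 CPM in *Pax7*WT and 6381, 5982 and 7495 CPM in *Pax7*KR. The groups overlapped at *Pax7*KR 3 and *Pax7*WT 2, and the log2 fold change was -0.21 (SE 0.10).

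Complex IV, the cytochrome c oxidase that reduces oxygen, has 3 catalytic-core subunits encoded in the mitochondria. *mt-Co1* (ENSMUSG00000064351, chrM:5328-6872), which had the most reads of the 15 genes as deposited, was at 17915, 18679 and 20021 CPM in *Pax7*WT and 15712, 14502 and 17857 CPM in *Pax7*KR, a log2 fold change of -0.24 (SE 0.10). *mt-Co2* (ENSMUSG00000064354, chrM:7013-7696) was at 5787, 6190.1 and 6376 CPM in *Pax7*WT and 4937, 4850.1 and 5718 CPM in *Pax7*KR, also -0.24 (SE 0.09). In both genes *Pax7*KR 3 lay just under *Pax7*WT 1, and for *mt-Co2* as deposited the groups overlapped at these libraries. *mt-Co3* (ENSMUSG00000064358, chrM:8607-9390) was at 4750.1, 5199 and 5524 CPM in *Pax7*WT and 4386, 4161 and 5060.1 CPM in *Pax7*KR, with overlap and a log2 fold change of -0.19 (SE 0.09). As deposited *mt-Co3* was at 1595, 2382 and 1868 CPM in *Pax7*WT and 1579.7, 1255 and 1622 CPM in *Pax7*KR, which gave -0.39 (SE 0.17), farther from 0 and with a wider error.

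ATP synthase uses the proton gradient to make ATP, and both mitochondrial subunits lie in its membrane part. Their genes share 43 bases in different reading frames, shown here in capitals at chrM:7907-7969 for *mt-Atp8* and chrM:7927-7989 for *mt-Atp6*, both on the plus strand.
mt-Atp8 end: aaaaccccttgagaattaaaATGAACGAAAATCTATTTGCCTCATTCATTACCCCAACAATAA
mt-Atp6 start: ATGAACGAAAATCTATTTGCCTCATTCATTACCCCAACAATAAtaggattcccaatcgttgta
*mt-Atp6* (ENSMUSG00000064357, chrM:7927-8607) was at 7290.3, 6849 and 7577 CPM in *Pax7*WT and 5946, 5542 and 7107 CPM in *Pax7*KR, a log2 fold change of -0.22 (SE 0.10). As deposited it was at 974, 1321 and 1151 CPM in *Pax7*WT and 934, 833 and 846 CPM in *Pax7*KR, and the log2 fold change was -0.40 (adjusted p = 0.959 in edgeR and 0.05003 in DESeq2; SE 0.10). The groups were apart as deposited and overlapped with the copy added, at *Pax7*KR 3 and *Pax7*WT 2. *mt-Atp8* (ENSMUSG00000064356, chrM:7766-7969), on the same transcript, was at 677, 618 and 738 CPM in *Pax7*WT and 581, 535 and 682 CPM in *Pax7*KR, with overlap and a log2 fold change of -0.18 (SE 0.09). With the copy added, *mt-Atp6* thus lay close to its partner, where the reads as deposited set the pair at -0.40 and -0.18.

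**Figure D4:**
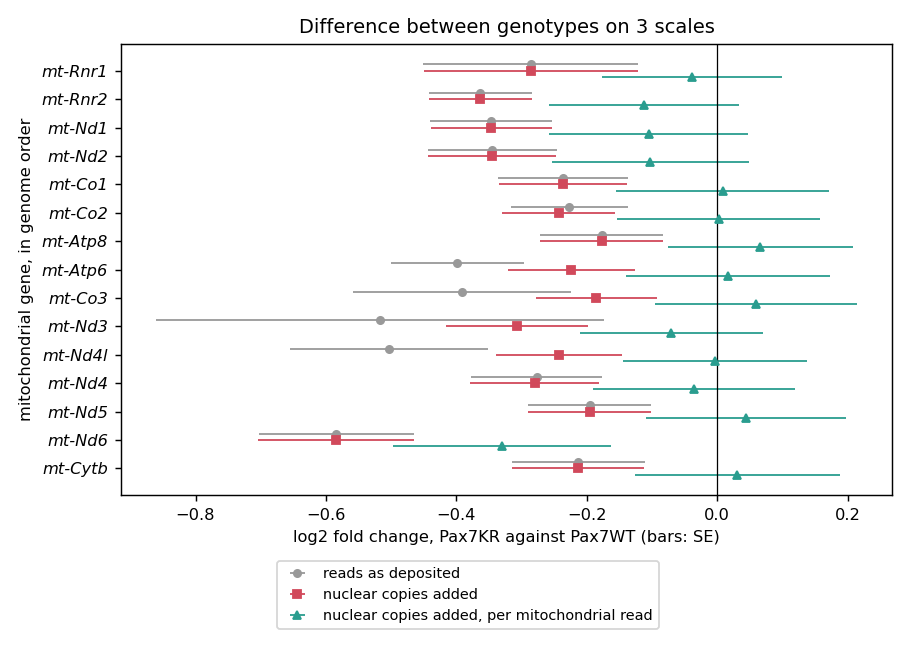
Log2 fold change of *Pax7*KR against *Pax7*WT with its standard error (horizontal axis and bars) for the 15 genes in genome order (vertical axis), from edgeR with the reads as deposited (grey), with the nuclear copies added (red) and with the copies added and the mitochondrial reads as library size (green). The grey points of *mt-Atp6*, *mt-Co3*, *mt-Nd3* and *mt-Nd4l* lie farther from 0 than the red ones, and the green points lie between -0.11 and 0.07 except for *mt-Nd6* at -0.33.

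To see whether single genes differed from the rest of the mitochondrial RNA, the fit was repeated with the mitochondrial reads, copies added, as library size. This alternative was chosen after seeing the data. On this scale 8 of the 15 genes had a negative and 7 a positive log2 fold change, and the median was near 0, while the median of all tested genes moved to 0.25. The values of *mt-Rnr2*, *mt-Nd1* and *mt-Nd2* were -0.11, -0.10 and -0.10, those of *mt-Atp8* and *mt-Co3* were 0.07 and 0.06, and *mt-Nd6* stood at -0.33 (adjusted p = 0.217 in edgeR; SE 0.17). The spread in this fit was estimated with all genes on the mitochondrial scale, and the SE of *mt-Co1* was 0.16 here against 0.10 before. SE and p-values of this fit therefore do not measure the spread of the mitochondrial genes relative to each other alone. On this scale 0 of the 15 passed the adjusted cut-off, which 3.05% of all genes passed in either direction and 0.07% on the lower side. Of the 15, 1 (*mt-Nd6*, on the lower side) had an unadjusted p under 0.05, where 0.385% of all genes had one on the lower side and 22.8% in either direction. Of the mitochondrial mRNA reads, complex I genes made up 28.1%, 28.6% and 28.2% in *Pax7*WT and 27.4%, 27.3% and 27.8% in *Pax7*KR, without overlap. The other shares overlapped, with means of 12.0% and 12.3% for complex III, 47.2% and 47.7% for complex IV, and 12.4% and 12.6% for ATP synthase in *Pax7*WT and *Pax7*KR.

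Levels per length were compared between genes as TPM with the copies added, over all 6 libraries. Ranges span libraries of both genotypes, so genes whose ranges overlap can still keep the same order in every library. For example, *mt-Nd1*, the shorter gene, had more reads than *mt-Nd2* in every library. *mt-Atp6* was highest at a mean of 22362 TPM, followed by *mt-Co1* at 20781, *mt-Atp8* at 19274 and *mt-Co2* at 18193 TPM, and the ranges of these genes overlapped. Next came *mt-Co3* at 12938 and *mt-Cytb* at 11898 TPM, which overlapped each other but not *mt-Co2*, whose lowest library was at 16399 TPM. *mt-Nd4l*, *mt-Nd4* and *mt-Nd1* followed with means of 7598, 7409 and 7231 TPM and overlapping ranges. *mt-Nd2* had a mean of 5562 TPM and a range of 4652 to 6376 TPM. This range overlapped those of *mt-Nd4l* and *mt-Nd1*. The TPM of a copy is on its own length, and the copy of *mt-Nd4* covers only 876 of 1378 bases. Its reads thus count for more than they would on the length of *mt-Nd4*. With the copy the lowest library of *mt-Nd4* was at 6461 TPM, above the range of *mt-Nd2*. As deposited *mt-Nd4* had a mean of 6498 TPM, below *mt-Nd1*, and its lowest library, at 5810 TPM, lay within that range. The range of *mt-Nd2* also overlapped that of *mt-Nd3*, which had a mean of 4508 TPM and a highest library at 5106 TPM. *mt-Nd5* at 4238 TPM overlapped *mt-Nd3*. *mt-Rnr2* at 1416, *mt-Rnr1* at 764 and *mt-Nd6* at 83.2 TPM were each apart from all other genes. As deposited, *mt-Atp6* was at 3346 TPM, below *mt-Co3* at 4574 TPM. The effective length of *mt-Atp8* was only 53 to 56 of 204 bases, so its level per length depends strongly on the fragment sizes assumed.

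The nuclear genes that act on mitochondrial RNA were read from the same fit in 5 lists. Of 84 tested genes, 34 had a positive and 50 a negative log2 fold change, with a median of -0.02, and 0 passed the adjusted cut-off in edgeR or in DESeq2. In 4 of the 84 every *Pax7*KR library lay below every *Pax7*WT library and in 3 above, where 5.19% of all genes lay below. The share of all genes that lay above was not counted, so the 3 cannot be set against it. An unadjusted p under 0.05 was reached by 3 of the 84, against 4.68% of all genes, with 1 on the higher side and 2 on the lower side. The higher one was *Polrmt*, the RNA polymerase of mitochondria, at 29.4, 32.9 and 29.8 CPM in *Pax7*WT and 36.2, 37.02 and 32.3 CPM in *Pax7*KR (log2 fold change 0.20, SE 0.09), with overlapping groups. *Tfam*, which packs mitochondrial DNA and starts its transcription, was at 36.2, 35.7 and 36.98 CPM in *Pax7*WT and 33.0, 29.9 and 34.2 CPM in *Pax7*KR, without overlap (log2 fold change -0.17, SE 0.08). The other named factors of transcription were at -0.09 for *Tfb2m*, which opens the promoter, at -0.09 for the elongation factor *Tefm* and at -0.22 for *Mterf3*, known as a repressor of transcription, and their groups overlapped.

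Of the enzymes that cut tRNAs out, *Prorp*, the nuclease for the 5′ end, had a log2 fold change of -0.06 and *Elac2*, the nuclease for the 3′ end, 0.05. In the same list *Nsun3*, which methylates the mitochondrial tRNA for methionine, had the smallest p on the lower side (-0.28, SE 0.13, 14.9 against 12.3 CPM, without overlap). On the higher side it was *Trmu*, which thiolates tRNAs (0.16, SE 0.10, 20.5 against 22.9 CPM, also without overlap). *Lrpprc* and *Slirp*, which bind and stabilise mitochondrial mRNAs as a pair, were at 0.01 and -0.09, the poly(A) polymerase *Mtpap* at -0.11, *Fastk*, which is tied to the stability of *mt-Nd6* mRNA, at -0.02, and the degradation enzymes *Pnpt1* and *Supv3l1* at -0.001 and -0.06. The smallest p of this list belonged to the oligoribonuclease *Rexo2* on the higher side (0.10) and to *Pde12*, which removes poly(A) tails, on the lower side (-0.25). For the ribosome, the rRNA methyltransferase *Nsun4* was at 0.03, *Mettl17*, an assembly factor, had the smallest p on the higher side (0.17) and the GTPase *Mtg1* on the lower side (-0.19). Among regulators of mitochondrial biogenesis, the coactivator *Ppargc1a* was at 12.5 CPM in both groups (log2 fold change -0.003). *Gabpb2*, a subunit of the GABP transcription factor, had the smallest p on the higher side (0.12, SE 0.06, 158 against 171 CPM, without overlap). On the lower side it was the transcription factor *Myc* (-0.20, SE 0.07, 112 against 97.0 CPM, with overlap).

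Of the genes listed as nuclear subunits of complexes I, III and IV and of ATP synthase, with the inhibitor *Atpif1* among them, 75 were tested. Of the 75, 29 had a positive and 46 a negative log2 fold change, with a median of -0.03. Of these, 0 passed the adjusted cut-off in edgeR or in DESeq2, and 0 had an unadjusted p under 0.05. In 4 every *Pax7*KR library lay below every *Pax7*WT library and in 0 above, where 5.19% of all genes lay below and the share above was not counted. The medians were -0.02 for the 38 genes listed under complex I (*Ndufa4*, at -0.14, was listed there), -0.01 for 9 under complex III, -0.05 for 10 under complex IV and -0.02 for 18 under ATP synthase. The genes with the smallest p in each direction were *Ndufb9* (0.12) and *Ndufa6* (-0.13) for complex I, *Uqcrh* (0.09) and *Uqcrq* (-0.10) for complex III, *Cox6c* (0.04) and *Cox7c* (-0.12) for complex IV, and *Atp5l* (0.04) and the inhibitor *Atpif1* (-0.16, without overlap) for ATP synthase. The lowest value of the 75, named here after its value was seen, was -0.44 (SE 0.42) for *Atp5g2*, a subunit of the membrane ring of ATP synthase, below the values of 14 of the 15 mitochondrial genes with copies added. *Atp5g2* was at 2.54, 6.89 and 8.23 CPM in *Pax7*WT and 4.55, 5.19 and 3.17 CPM in *Pax7*KR, a low level with overlapping groups. These subunits took 0.466% ± 0.0165 of reads in *Pax7*WT and 0.467% ± 0.00724 in *Pax7*KR (SD, n = 3 each). Mitochondrial mRNA reads, copies added, per read of these subunits were 12.995, 12.8 and 14.7 in *Pax7*WT and 11.2, 10.6 and 13.04 in *Pax7*KR, with overlap at *Pax7*KR 3.

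**Figure D5:**
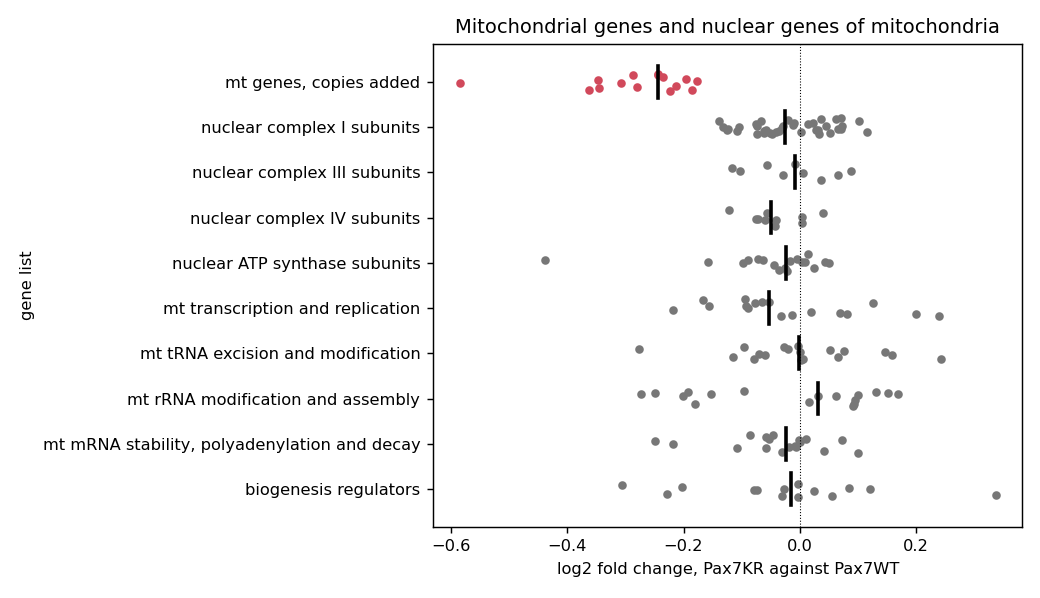
Log2 fold change of *Pax7*KR against *Pax7*WT (horizontal axis) for each gene (points) of the 15 mitochondrial genes with copies added (red) and of 9 lists of nuclear genes of mitochondria (grey), with the median of each list as a black bar. The median is -0.24 for the mitochondrial genes and lies between -0.05 and 0.03 for the nuclear lists.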

How the data were processed

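The authors quantified paired reads of each library with Salmon (version 1.3.0) against GENCODE transcripts of GRCm38 with genome decoys, and deposited estimated counts per transcript, without normalization and not always whole. The deposited TPM values and effective lengths, also made by the authors with Salmon, served here for levels per length and for an offset. The authors' deposited table of their own comparison (made with DESeq2 version 1.28.1) holds log2 fold changes, p-values and mean normalized counts and was not used. The strand setting and the selection of mRNA or removal of rRNA are not given in the sources used here.

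Here, reads were summed per gene and rounded. Genes, coordinates and sequences were taken through transcript identifiers from an earlier GENCODE release on GRCm38, in which 139791 of the 140992 transcripts were found. The unmatched ones held 0.606% of reads. A gene entered the test where at least 2 libraries had at least 5 reads. The test was edgeR's (version 4.0.16, R version 4.3.3; TMM, quasi-likelihood test with robust shrinkage, genotype alone), two-sided, with Benjamini-Hochberg adjustment over all 17152 genes and a cut-off of 0.1. CPM use TMM library sizes. Standard errors come from the log2 fold change and the F statistic. Shares over several genes were not tested. Scripts were tested on simulated data. Depth was 17822367 to 27908054 reads, and intervals from counts would cover counting error only.

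The alternatives were DESeq2 (version 1.42.0), RLE and upper-quartile factors, library sizes without the mitochondrial genes or made of them, no filter, a minimum of 10 reads in each library, a length offset, a replicate block, copies added, and each library left out. The combinations of DESeq2, mitochondrial library size, replicate block or a left-out library with copies added, and the 25% of shared sequence that makes a gene a copy, were chosen after seeing the data. The labels do not say whether samples of a group came from separate animals, so p-values measure the spread between these samples. Named are all mitochondrial genes with reads (the tRNAs, all at 0, could not be ranked by reads as planned), 15 nuclear factors of mitochondrial RNA and, in each nuclear list, the gene with the smallest p in each direction. Nuclear genes sharing 31-base sequences with mitochondrial transcripts are named if they pass the same filter. Members and lists were chosen with earlier results of these data known.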

Additional observations from a re-analysis of the deposited data

How the results depend on the processing

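All 15 mitochondrial genes kept a negative log2 fold change in edgeR under RLE and upper-quartile factors, both filters, the length offset, the replicate block, each left-out library and with the copies added, and in DESeq2. Signs turned only where the mitochondrial reads were the library size. There mt-Atp8 was at 0.081, mt-Nd5 at 0.059, mt-Cytb at 0.046, mt-Co2 at 0.035 and mt-Co1 at 0.024, and with the copies added as well mt-Atp8 was at 0.066, mt-Co3 at 0.05995, mt-Nd5 at 0.044, mt-Cytb at 0.0305, mt-Atp6 at 0.017, mt-Co1 at 0.0082 and mt-Co2 at 0.0019. By construction this setting gives differences from the rest of the mitochondrial RNA.

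The number of mitochondrial genes past the adjusted cut-off was 0 in edgeR, 5 in DESeq2, 3 in DESeq2 with the copies added and 7 in edgeR without a filter beyond 1 read (mt-Rnr2, mt-Nd1, mt-Nd2, mt-Atp6, mt-Nd4l, mt-Nd4 and mt-Nd6), where 0.291% of all genes were called on the lower side. It was 0 with each library left out, and 0 to 1 with the copies added, where mt-Nd3 passed without Pax7KR replicate 3. Over all genes, with the reads as deposited, the count was 0 in edgeR, 30 in DESeq2, 157 without a filter and 13 with the replicate block. It was 32 without Pax7KR replicate 3 and 1 to 5 with any other library left out. The cause was not tested. The difference in the share of reads on mitochondrial genes was -0.80 percentage points, between -1.05 without Pax7KR replicate 3 and -0.60 without Pax7KR replicate 2, and -0.89 with the copies added. The nuclear lists had 0 genes past the cut-off in edgeR, in DESeq2, with the replicate block and with each library left out.

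The replicate numbers share no stated origin, and deviations of same-numbered libraries from their group means correlated at 0.002, 0.04 and -0.06 over 17152 genes, so the numbers were not taken as pairs. Of the 6 libraries, 2 correlated best with the library of their own number in the other group. In the fit with the replicate block, 0 mitochondrial genes passed, with a smallest adjusted p of 0.282.

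With each library left out in turn, these nuclear genes, none past the cut-off, changed sign within their range: Tefm -0.20 to 0.054, Prorp -0.16 to 0.026, Elac2 -0.012 to 0.14, Lrpprc -0.026 to 0.037, Slirp -0.15 to 0.022, Pnpt1 -0.056 to 0.046, Fastk -0.043 to 0.023, Nsun4 -0.072 to 0.10, Ppargc1a -0.057 to 0.098, Cox6c -0.011 to 0.083 and Atp5l -0.0041 to 0.085. Depth limits mt-Nd6 most, with 291 to 489 reads per library. The division of reads between identical sequences limits mt-Atp6, mt-Co3, mt-Nd3 and mt-Nd4l.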

Other observations

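Cep295, a nuclear gene for a centrosomal protein, shares a few 31-base sequences with the tRNA gene mt-Ty, 4 of 6124, and held 780 to 1317 reads per library. It was at 47.9 ± 3.62 CPM in Pax7WT and 51.6 ± 4.14 CPM in Pax7KR (SD, n = 3 each), with overlap, and was not counted as a copy. Among the copies themselves, Gm28661 was at 203, 0 and 55.5 CPM in Pax7WT 1, 2 and 3 and at 22.9, 7.75 and 10.4 CPM in Pax7KR 1, 2 and 3. Gm28438 was at 3.20, 218 and 30.6 CPM in Pax7WT and at 166, 99.5 and 82.3 CPM in Pax7KR. In both, libraries of Pax7WT differed by more than the groups did. In contrast Gm10925 was at 6316, 5528 and 6426 CPM in Pax7WT and 5012, 4709 and 6262 CPM in Pax7KR, an order of libraries close to that of the mitochondrial genes. Gm29216, a copy of mt-Co1, was at 52.0 to 103 CPM in Pax7WT and 56.7 to 70.7 CPM in Pax7KR, with overlap. Of the copies on chromosome 2, Gm13341 was at 2.03 ± 0.339 CPM in Pax7WT and 1.59 ± 0.443 CPM in Pax7KR, and Gm13340 at 1.76 ± 0.153 CPM and 1.71 ± 0.427 CPM (SD, n = 3 each), both with overlap.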
